A study of Mus musculus with 6 samples.

Results

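The genes of the BCL2 family decide whether a mitochondrion keeps or loses its outer membrane barrier, and 10 of them were taken here: the pro-survival genes Bcl2, Bcl2l1, Bcl2l2 and Mcl1, the BH3-only genes Bcl2l11, Bad, Bid and Bbc3, and the effector genes Bak1 and Bax. The members were all probe sets whose annotation gave 1 of these symbols and no other. This rule found 32 probe sets for 9 of the 10 genes, out of 45037 probe sets tested for 18193 named genes. No probe set carried Bax as its only symbol, and Bax is not analysed here. Of the 9 genes found, only Bbc3 was measured by 1 probe set, while Mcl1 had 6, Bcl2 and Bcl2l11 had 5 each, Bcl2l1 and Bcl2l2 had 4 each, Bid had 3, and Bad and Bak1 had 2 each.

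The dKO group consisted of 3 arrays, each from a pool of 3 mice with floxed c-myc and N-myc alleles and the MxCre transgene. The control group consisted of 3 arrays, each from a pool of 2 mice with the same floxed alleles and no MxCre. MxCre places the recombinase under an interferon-responsive promoter, so deletion is not limited to the cells studied, and what MxCre does by itself cannot be told apart from what loss of both genes does. All mice were 8 weeks old, had a mixed background and received 2 daily pI-pC treatments, an interferon inducer, the last 3 days before the marrow was taken. The cells were sorted from bone marrow as Lin- Sca1+ CD150+ CD48+, a gate the study assigns to committed progenitors. The tissue label of control 1 names LT-HSCs, but it was sorted with the same gate and titled like the rest.

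Pro-survival proteins hold the effectors BAK and BAX in check and bind the BH3-only proteins, which carry stress signals. BIM (from Bcl2l11), PUMA (Bbc3) and cleaved BID can engage every pro-survival protein or the effectors directly, whereas BAD binds BCL2, BCL-XL and BCL-W but not MCL1. Once active, BAK and BAX permeabilise the mitochondrial outer membrane, cytochrome c escapes and caspases are activated. In the blood system MCL1 is needed by haematopoietic stem cells, BCL-XL (from Bcl2l1) by platelets and late erythroid cells, and BCL2 by mature lymphocytes. MYC is known to sensitise cells to apoptosis in many settings, and BCL2 is its classical cooperating partner in lymphoma.

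The start-site windows of the 2 members with a changed probe set, Bcl2 and Bcl2l1, are shown because both rose in dKO, whose deleted genes encode factors that bind E-boxes, and 1 window of Bbc3 is shown because it holds such a box. The windows are RefSeq sequences of build GRCm38.p6, each running from 250 bases before to 50 bases after an annotated start. Capitals mark the E-box core CACGTG bound by MYC with MAX, the GATA motif AGATAA and the GC box GGGCGG, each searched on both strands. In the Bbc3 window some copies of the GC box overlap one another, and no other matches overlap in the windows shown. Bcl2 has 1 window, on the minus strand at chr1:106714241-106714540, and the 3 windows of Bcl2l1 lie on the minus strand at chr2:152831679-152831978, chr2:152830668-152830967 and chr2:152828440-152828739. The third window of Bbc3 lies on the plus strand at chr7:16310181-16310480.
Bcl2: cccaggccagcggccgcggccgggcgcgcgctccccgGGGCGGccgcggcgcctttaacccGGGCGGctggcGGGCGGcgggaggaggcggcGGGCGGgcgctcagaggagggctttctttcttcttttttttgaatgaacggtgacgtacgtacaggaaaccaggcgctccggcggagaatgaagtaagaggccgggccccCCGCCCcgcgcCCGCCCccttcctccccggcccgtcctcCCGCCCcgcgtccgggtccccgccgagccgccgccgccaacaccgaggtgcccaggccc
Bcl2l1, start 1: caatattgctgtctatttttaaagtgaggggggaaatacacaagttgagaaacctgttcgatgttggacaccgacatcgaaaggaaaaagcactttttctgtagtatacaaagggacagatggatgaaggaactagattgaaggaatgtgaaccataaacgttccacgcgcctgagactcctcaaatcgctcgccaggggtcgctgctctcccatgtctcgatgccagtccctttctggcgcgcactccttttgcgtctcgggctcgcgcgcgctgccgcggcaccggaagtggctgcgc
Bcl2l1, start 2: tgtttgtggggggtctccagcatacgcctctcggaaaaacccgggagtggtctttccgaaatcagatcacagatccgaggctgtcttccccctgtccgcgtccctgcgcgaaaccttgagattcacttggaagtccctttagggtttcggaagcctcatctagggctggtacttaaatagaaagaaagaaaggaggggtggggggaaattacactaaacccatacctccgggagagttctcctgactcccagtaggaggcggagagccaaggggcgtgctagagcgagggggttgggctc
Bcl2l1, start 3: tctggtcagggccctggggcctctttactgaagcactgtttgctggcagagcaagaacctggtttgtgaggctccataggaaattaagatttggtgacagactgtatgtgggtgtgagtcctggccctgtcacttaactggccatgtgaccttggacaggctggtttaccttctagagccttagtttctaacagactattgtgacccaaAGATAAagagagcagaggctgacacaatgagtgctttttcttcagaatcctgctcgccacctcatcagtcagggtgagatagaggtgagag
Bbc3, start 3: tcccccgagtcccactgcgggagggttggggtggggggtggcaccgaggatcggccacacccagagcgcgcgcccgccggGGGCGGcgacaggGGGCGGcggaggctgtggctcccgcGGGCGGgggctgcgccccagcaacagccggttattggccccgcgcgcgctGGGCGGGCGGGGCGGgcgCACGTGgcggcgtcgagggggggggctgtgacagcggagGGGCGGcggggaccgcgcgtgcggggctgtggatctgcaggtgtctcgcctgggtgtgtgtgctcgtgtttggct

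Neither the Bcl2 window nor any Bcl2l1 window held CACGTG. Over the 16 windows of the 10 genes it was found in 2, the Bbc3 window above and the window of Bax, while 7.15% of all 32851 windows held it. The GC box was found in 11 of the 16, against 35.7% of all windows, and the Bcl2 window held 7 copies. AGATAA was found in 1 of the 16, the third Bcl2l1 window, against 11.2% of all windows. A match or its absence describes these letters in these windows only, and the arrays do not show which start was used. Control of these genes by MYC was not tested.

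Both targeted genes were lower in every dKO pool by their clearest probe sets. Myc, by its single probe set, stood between 7.44 and 7.99 in dKO and between 10.47 and 10.95 in control (log2). The Mycn probe set 1417155_at stood between 3.28 and 4.47 in dKO and between 8.93 and 9.57 in control, while the other two Mycn probe sets differed by -0.83 and 0.34 and did not pass (limma, adjusted p = 0.184 and 0.427). Array medians lay between 5.90 and 5.94. Signal of Xist, an RNA of female cells, was high in dKO 1 (10.50) and control 1 (9.10) and between 5.03 and 5.86 in the other arrays. Of the sorted surface markers, Slamf1 (CD150) averaged 9.10 in dKO and 8.31 in control and Cd48 11.43 and 11.23, and Ly6a is not analysed here.

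Among the members, the survival genes Bcl2l1 and Bcl2 rose in dKO, and no member probe set passed the threshold downwards. On average 15 of the 32 member probe sets were higher in dKO and 17 were lower. In the limma fit over all probe sets, 4 of the 32 member probe sets passed the adjusted p threshold of 0.05 upwards, 3 of Bcl2l1 and 1 of Bcl2, where 1.83% of all probe sets did, and 3.6% of all passed in either direction. Downwards 0 of 32 passed, where 1.78% of all did. At an unadjusted p under 0.05 there were 11 member probe sets, where 15.9% of all had one. The dKO arrays lay wholly above the control arrays in 8 of the 32 member probe sets, where this held for 10.7% of all, and wholly below in 3, where this held for 10.6%. The median log2 fold change (dKO minus control) was -0.01 over the 32 member probe sets and 0.03 over all probe sets. By role, the median was 0.12 over 19 pro-survival probe sets, -0.14 over 11 BH3-only probe sets and 0.50 over the 2 effector probe sets. In a fit with 1 probe set for each gene, the brightest, 2 of 9 members rose, Bcl2 (adjusted p = 0.0201) and Bcl2l1 (adjusted p = 0.0157), where 3.12% of all genes did. In that fit 0 of 9 passed downwards, where 2.85% of all genes did. Probe sets of 1 gene share that gene's RNA, so they are not independent.

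**Figure D1:**
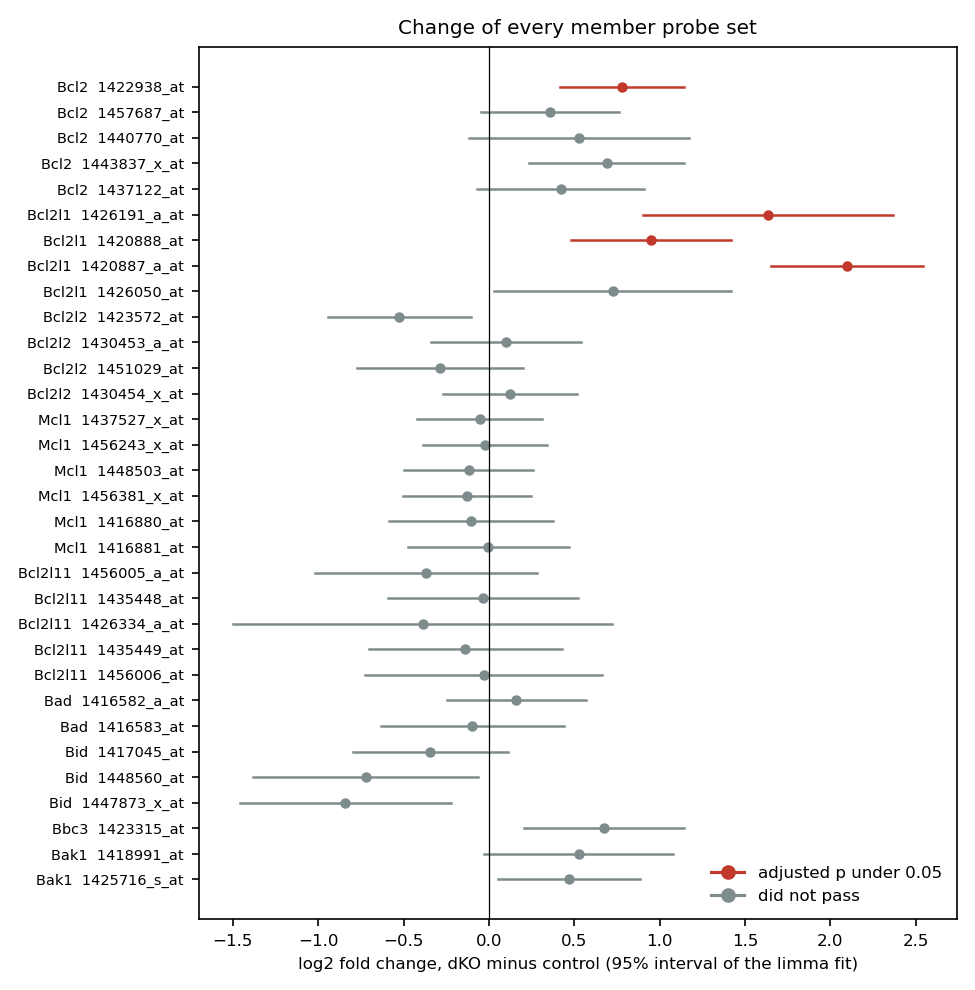
Log2 fold change (dKO minus control, horizontal axis) of each of the 32 member probe sets, with the 95% interval of the limma fit over 3 dKO and 3 control pools. The 4 probe sets that passed (red) are 1 of Bcl2 and 3 of Bcl2l1, at 0.78 to 2.09, and all 6 of Mcl1 lie between -0.13 and -0.0045.

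Bcl2l1 encodes BCL-XL and, by alternative splicing, the shorter death-promoting BCL-XS; its probe sets are not tied to either form in the sources used here. All 4 of its probe sets were higher on average in dKO, and 3 of them passed. The probe set 1420887_a_at read 8.36, 8.25 and 8.22 in the dKO pools, against 6.52, 5.97 and 6.06 in the control pools (log2). Every dKO pool was above every control pool, by more than the spread within either group. Its mean was 8.28 ± 0.07 in dKO and 6.18 ± 0.29 in control (SD, n = 3 each), a log2 fold change of 2.09 ± 0.20 (SE) or 4.27-fold (95% interval 3.14 to 5.82; limma, adjusted p = 0.00134).

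The brightest Bcl2l1 probe set, 1426191_a_at, read 8.87, 8.85 and 8.52 in the dKO pools and 7.73, 6.38 and 7.23 in the control pools. Control 2 was the lowest of these, and the control pools were more spread than the dKO pools. The log2 fold change was 1.63 ± 0.32 (SE), or 3.10-fold (limma, adjusted p = 0.0305). Probe set 1420888_at read 7.77, 7.81 and 8.22 in the dKO pools and 6.80, 6.90 and 7.26 in the control pools, again without overlap. It rose by 0.95 ± 0.21 (limma, adjusted p = 0.0438). The dimmest, 1426050_at, read 4.37, 5.26 and 5.42 in dKO and 3.96, 4.27 and 4.66 in control, so dKO 1 lay within the control range. It differed by 0.72 (95% interval 0.03 to 1.42) and did not pass (limma, adjusted p = 0.29). Differences near the lower end of the RMA scale can be compressed, which was not tested here. Over the 6 arrays the 6 pairs of Bcl2l1 probe sets had correlations of 0.51 to 0.94, which include the difference between the groups.

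Bcl2 encodes the founding survival protein of the family, and all 5 of its probe sets were higher on average in dKO, with log2 fold changes of 0.36 to 0.78. The brightest, 1422938_at, was the only one to pass. It read 11.50, 11.57 and 11.62 in the dKO pools and 10.81, 10.82 and 10.72 in the control pools. The groups did not overlap and each was tight, with means of 11.56 ± 0.06 in dKO and 10.78 ± 0.06 in control (SD, n = 3 each). Bcl2 thus rose by 0.78 ± 0.16 (SE) on the log2 scale, or 1.72-fold (95% interval 1.34 to 2.21; limma, adjusted p = 0.0344). Probe set 1443837_x_at was also higher in every dKO pool, at 9.02, 9.45 and 8.89 in dKO and 8.44, 8.52 and 8.33 in control, and did not pass (0.69 ± 0.20; limma, adjusted p = 0.114). In 1457687_at the groups lay apart too, with 9.83, 10.11 and 9.82 in dKO and 9.41, 9.69 and 9.59 in control (limma, adjusted p = 0.386). The other two, 1440770_at and 1437122_at, overlapped between the groups and differed by 0.53 and 0.42.

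**Figure D2:**
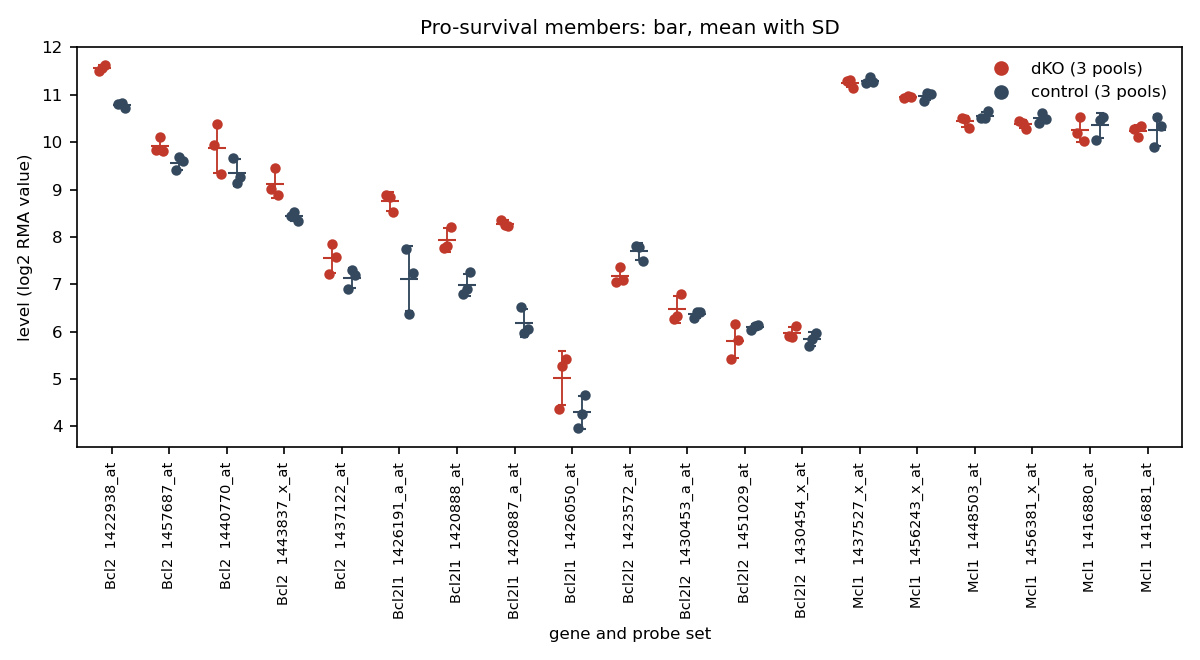
Level (log2 RMA value, vertical axis) of the 19 pro-survival probe sets in each pool, with 3 dKO pools (red) left of 3 control pools (dark) and bars for the mean ± SD. The dKO pools lie above the control pools in 3 probe sets of Bcl2 and 3 of Bcl2l1, whereas all 6 of Mcl1 overlap. Over all probe sets 10.7% lay wholly above control.

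Which calls held with fewer pools differed between the probe sets. Bcl2l1 1420887_a_at passed with each single array left out, at log2 fold changes of 1.99 to 2.26 (limma, adjusted p from 0.00254 to 0.0104). Bcl2l1 1426191_a_at passed without control 1 (1.94, adjusted p = 0.0177) and with no other array left out (1.26 to 1.75, adjusted p up to 0.0981). Bcl2 1422938_at kept a log2 fold change of 0.75 to 0.81 and lost its call without any 1 of the 6 arrays (adjusted p from 0.0547 to 0.149). The same held for Bcl2l1 1420888_at, at 0.81 to 1.08 (adjusted p from 0.0735 to 0.162). Without both pools with high Xist signal, Bcl2 1422938_at (adjusted p = 0.211) and Bcl2l1 1420888_at (adjusted p = 0.213) did not pass, and the other two Bcl2l1 probe sets did. These fits have fewer arrays. Over all probe sets the number of calls was 661 to 1472 with single arrays left out and 565 without both Xist pools, against 1622 with all 6 arrays.

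**Figure D3:**
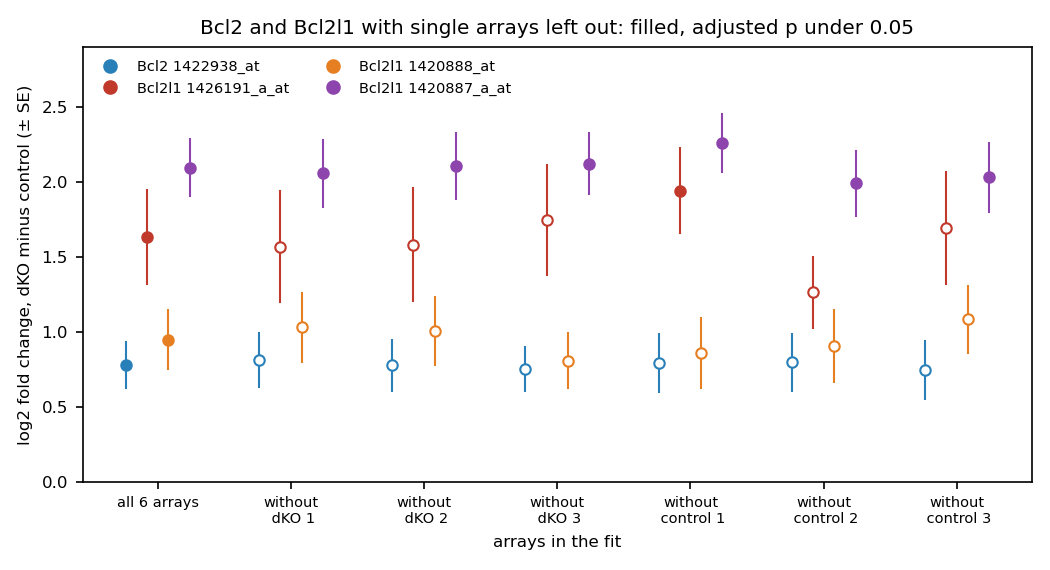
Log2 fold change (dKO minus control, ± SE, vertical axis) of the 4 member probe sets that passed, with all 6 arrays and with each array left out (horizontal axis). Filled points have an adjusted p under 0.05; Bcl2l1 1420887_a_at stays filled throughout, between 1.99 and 2.26.

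Mcl1 encodes a short-lived survival protein, and its 6 probe sets lay close together. They differed by -0.13 to -0.0045 on the log2 scale and none passed (limma, adjusted p of at least 0.793), and in each the groups overlapped. The brightest, 1437527_x_at, read 11.29, 11.30 and 11.15 in dKO and 11.25, 11.37 and 11.27 in control, a difference of -0.05 with a 95% interval of -0.42 to 0.31. Over the 6 probe sets these intervals ran from -0.59 to 0.47, and a smaller difference in either direction stays possible with these arrays. Protein levels were not measured.

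Bcl2l2 encodes BCL-W, and its 4 probe sets did not move one way. The brightest, 1423572_at, read 7.05, 7.37 and 7.09 in dKO and 7.81, 7.79 and 7.49 in control. All dKO pools were below all control pools, and the difference of -0.53 ± 0.18 (SE) did not pass (limma, adjusted p = 0.198). The other Bcl2l2 probe sets overlapped between the groups, at 0.12, 0.10 and -0.29.

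None of the 11 BH3-only probe sets passed in either direction, where 3.6% of all probe sets did. Bbc3, which encodes PUMA and is a p53 target, read 6.62, 6.19 and 6.13 in dKO and 5.89, 5.54 and 5.49 in control. All dKO pools were higher than all control pools, with dKO 1 and control 1, the pools with high Xist signal, the highest of their groups. The log2 difference was 0.68 ± 0.21 (95% interval 0.21 to 1.14; limma, adjusted p = 0.134).

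Bid, whose protein links death receptors to mitochondria after cleavage by caspase 8, was lower on average in dKO by all 3 probe sets. The brightest, 1417045_at, read 7.04, 7.59 and 7.56 in dKO and 7.76, 7.80 and 7.66 in control, without overlap (-0.34 ± 0.20; limma, adjusted p = 0.473). Probe set 1448560_at read 5.50, 6.18 and 5.91 in dKO and 6.65, 7.06 and 6.04 in control, where control 3 fell within the dKO range (-0.72 ± 0.29; limma, adjusted p = 0.263). The dimmest, 1447873_x_at, read 3.50, 2.94 and 3.24 in dKO and 3.51, 4.43 and 4.27 in control. Its groups were only just apart, since dKO 1 and control 1 had nearly the same value, and it did not pass (-0.84 ± 0.27; limma, adjusted p = 0.157).

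Bcl2l11 encodes BIM, which is held low by cytokine signalling in blood cells. Its 5 probe sets differed by -0.39 to -0.03, and the groups overlapped in all of them. The brightest, 1456005_a_at, read 9.37, 9.71 and 8.83 in dKO and 9.99, 9.20 and 9.82 in control, a difference of -0.37 with a 95% interval of -1.02 to 0.28 (limma, adjusted p = 0.622). Probe set 1426334_a_at varied most among the dKO pools, from 4.74 in dKO 1 to 6.79 in dKO 3. Over the 10 pairs of Bcl2l11 probe sets the correlations across arrays ran from -0.77 to 0.72, so these probe sets did not all follow one another. Those of Bcl2l2 ran from -0.72 to 0.82. Bad, whose protein is switched off by phosphorylation, differed by 0.16 and -0.10 in its 2 probe sets, both with overlapping groups.

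Bak1 encodes the effector BAK, and both of its probe sets were higher on average in dKO without passing. Probe set 1425716_s_at read 8.53, 8.59 and 8.83 in dKO and 8.29, 8.28 and 7.97 in control, without overlap (0.47 ± 0.18; limma, adjusted p = 0.245). Probe set 1418991_at read 8.39, 8.91 and 9.20 in dKO and 8.03, 8.39 and 8.50 in control. There the groups overlapped, since dKO 1 lay below control 3, and the difference was 0.53 ± 0.24 (limma, adjusted p = 0.344).

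**Figure D4:**
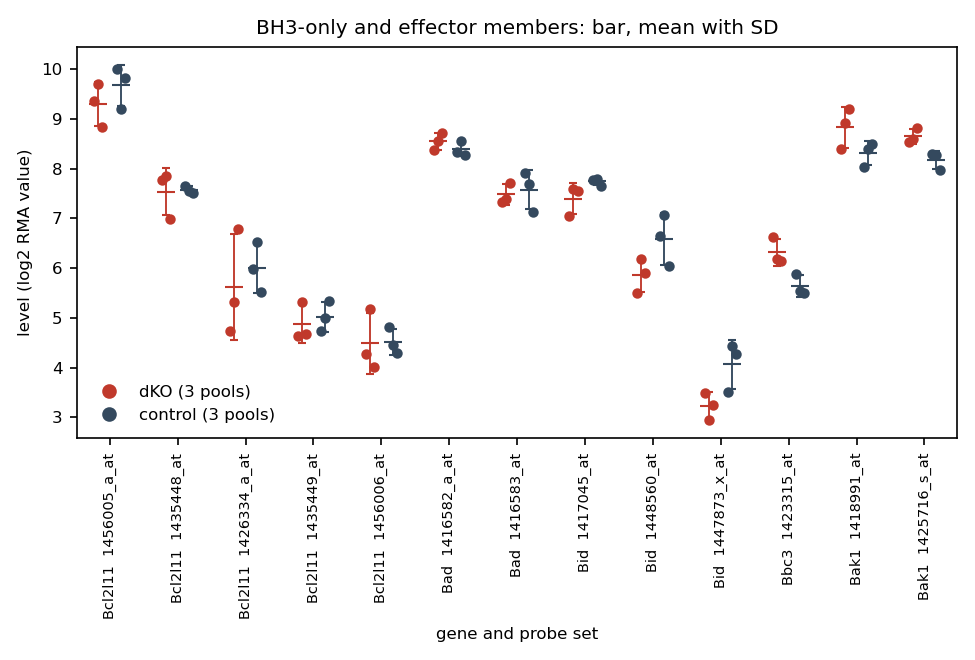
Level (log2 RMA value, vertical axis) of the 11 BH3-only and 2 Bak1 probe sets in each pool, with 3 dKO pools (red) left of 3 control pools (dark) and bars for the mean ± SD. Bbc3 and 1 probe set of Bak1 are higher in every dKO pool and 2 probe sets of Bid are lower. Over all probe sets, dKO lay wholly above control in 10.7% and wholly below in 10.6%. None of those shown passed the adjusted threshold, where 3.6% of all did.

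Beyond the members, 75 further genes of the cell death machinery and its regulators were listed and 65 were measured, each by its brightest probe set. Of these, 3 rose (Fasl, Ddit3 and Stat3) and 0 fell, where 2.45% of all genes by their brightest probe set rose in the same fit and 2.03% fell. In the 12 other BCL2 family genes measured, 0 passed by the brightest probe set and the median was 0.09. Bcl2a1a, Bcl2a1b, Bcl2a1d and Bnip3l were listed and not measured. The smallest p values belonged to Bnip3, a mitophagy receptor (-0.70 ± 0.22; limma, adjusted p = 0.142), and Bcl2l14 (0.77 ± 0.27; adjusted p = 0.203). The other Bcl2l14 probe set, 1429347_at, passed (1.26 ± 0.20; limma, adjusted p = 0.0142). Pmaip1, which encodes the BH3-only protein NOXA, was uneven among the dKO pools, with 8.12, 7.73 and 6.37 in dKO and 5.69, 7.27 and 6.59 in control. In the 13 mitochondrial partners and stability regulators 0 passed and the median was -0.01. The smallest p values there were those of Ywhaz, a 14-3-3 protein (0.37; adjusted p = 0.327), and Huwe1, a ubiquitin ligase of MCL1 (-0.34; adjusted p = 0.56).

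Downstream of the mitochondrion, 0 of 11 apoptosome and caspase genes passed, with a median of -0.07. Among all genes by their brightest probe set 2.45% rose and 2.03% fell. Casp2, an initiator caspase, read 8.05, 8.16 and 8.21 in dKO and 8.53, 8.97 and 8.95 in control (-0.67 ± 0.19; limma, adjusted p = 0.102), and the nuclease gene Endog differed by -0.59 (adjusted p = 0.281). Of 6 inhibitor of apoptosis genes 0 passed, with a median of -0.04, and Birc5 (survivin, -0.21) and Xiap (0.17) had the smallest p values.

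The death receptor list had the highest median of the 6 lists, 0.62 over 9 genes. Of these 8 were higher on average in dKO, as were 24399 of all 45037 probe sets. By its brightest probe set 1 of the 9 passed, where 2.45% of all genes rose and 2.03% fell. Tnfsf10, also of this list, passed by another probe set, 1420412_at (1.10; limma, adjusted p = 0.00887), and not by its brightest. Fasl, the ligand made by cytotoxic lymphocytes, read 8.04, 7.40 and 5.98 in dKO and 5.03, 5.21 and 4.71 in control. It rose by 2.16 ± 0.46 (limma, adjusted p = 0.0399), with dKO 3 well below the other dKO pools, and it passed when dKO 3 was left out (2.74, adjusted p = 0.00586) and not when any other single array was (adjusted p up to 0.137). Its receptor gene Fas had the next smallest p of the list and did not pass (0.95 ± 0.26; adjusted p = 0.0954).

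Of 14 transcription factors known to act on family members 2 rose and 0 fell, with a median of 0.11. By their brightest probe set 2.45% of all genes rose and 2.03% fell. Trp53 and Nfkb1, the other 2 of the 16 listed, were not measured by a probe set with that symbol alone. Ddit3, the stress factor CHOP, which raises Bcl2l11 and lowers Bcl2 in other settings, read 9.69, 9.11 and 9.42 in dKO and 8.16, 8.46 and 8.31 in control (1.10 ± 0.20; limma, adjusted p = 0.0238). Its other probe set differed by 0.32, and with the brightest the call was kept without dKO 2 and lost without any other single array (adjusted p up to 0.0909). Stat3, which can raise Bcl2l1, read 9.26, 9.28 and 9.53 in dKO and 8.53, 8.70 and 8.48 in control (0.78 ± 0.17; adjusted p = 0.0462). Its 4 probe sets ranged from -0.06 to 0.78, and the call was lost without any 1 array (adjusted p up to 0.181). Gata1, an activator of Bcl2l1 in erythroid cells, was higher in every dKO pool and did not pass (0.74 ± 0.20; adjusted p = 0.0885). Foxo4 (-0.48, adjusted p = 0.259) and Stat5b (-0.35, adjusted p = 0.385) were lower in every dKO pool and did not pass. Of the 14 genes, 8 were higher on average in dKO, as were 24399 of all 45037 probe sets.

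**Figure D5:**
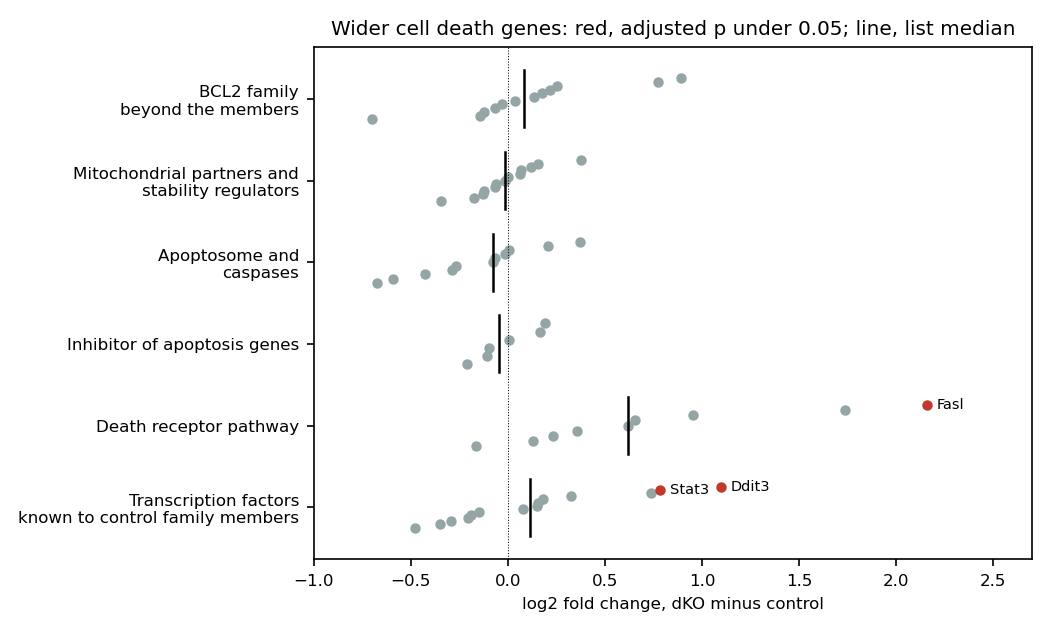
Log2 fold change (dKO minus control, horizontal axis) of the 65 measured genes of the wider cell death lists, each by its brightest probe set, with the list median as a vertical line. The 3 genes that passed (red) are Fasl, Stat3 and Ddit3, at 2.16, 0.78 and 1.10, and the death receptor list has the highest median, at 0.62.

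Markers of several mature lineages moved in the same comparison as Bcl2 and Bcl2l1, and in such pooled cells a change in the share of a cell type and a change of RNA per cell cannot be told apart. Of 11 megakaryocyte and platelet markers 6 rose and 0 fell, and their summed linear signal was 9980 to 11883 in the dKO pools and 3096 to 3145 in the control pools. In the T and NK cell list 7 of 14 measured genes rose and 0 fell, with sums of 7580.4 to 10448 in dKO and 2986 to 4568 in control. Of 9 mast cell and basophil markers 4 rose and 0 fell, with sums of 2142 to 4346 in dKO and 1244 to 1320.5 in control. These sums did not overlap between the groups for any of the 3 lists. Among all genes by their brightest probe set, 2.45% rose and 2.03% fell in the same fit. Single probe sets lay wholly above control in 10.7% of all. Linear sums weigh the brightest genes most. In the T and NK list Gzma averaged 11.53 in dKO and 9.57 in control and did not pass (limma, adjusted p = 0.0538).

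Of 8 erythroid markers 0 passed upwards and 1 (Tfrc) fell, although the other 7 were higher on average in dKO and the list's median log2 fold change was 0.68. In 5 of these, Klf1 (0.58), Epor (0.77), Slc4a1 (1.16), Alas2 (1.29) and Car1 (0.78), every dKO pool was above every control pool, as in 10.7% of all probe sets, and none of the 5 passed (limma, adjusted p from 0.0584 to 0.137). The erythroid sums, 4796 to 7103 in dKO and 5487 to 6126 in control, overlapped. Of 9 B cell markers 0 rose and 1 (Blnk) fell, with sums of 609.6 to 926 in dKO and 690.3 to 1129.98 in control. In the granulocyte and monocyte list 0 of 12 rose and 2 (Csf1r and Lyz2) fell. Its sums were 1484 to 4685 in dKO and 7159 to 11589 in control and did not overlap. Single probe sets lay wholly below control in 10.6% of all. RMA gives no zero; the dimmest markers of the first 3 lists were Gp6 (4.18 in dKO, 4.11 in control), Cd5 (4.29 and 3.89) and Tpsab1 (3.88 and 3.70). The part of these cell types in the changes of Bcl2 and Bcl2l1 was not tested.

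Over the 6 arrays, the named genes whose levels followed Bcl2 1422938_at most closely were Id2 (r = 0.998), Tuba8 (0.997) and Ptpn14 (0.997). For Bcl2l1 1426191_a_at they were Crygd (0.994), Sgce (0.994) and Pgap3 (0.993). These correlations are dominated by the difference between the groups, and 1114 and 546 named probe sets exceeded 0.9 with the Bcl2 and the Bcl2l1 probe set.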

How the data were processed

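Gene expression was measured on Affymetrix mouse arrays in 3 dKO and 3 control pools. Per the labels' protocols, RNA was purified with Trizol and amplified in 2 rounds with a Nugen kit before biotin labelling. The authors deposited log2 values, and the submitters' processing notes name RMA as the tool. Its version is not given in the sources used here, nor whether it was run on all 6 arrays at once. With 6 arrays the precision is limited by their number.

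Of 45101 probe sets, 64 Affymetrix controls were left out. The platform annotation gave 1 symbol to 34945 of the rest, several to 932 and none to 9160, and 34741 probe sets were matched to RefSeq genes (GRCm38.p6). Probe sets ending in _x_at or _s_at may match further transcripts.

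Groups came from the sample titles. The dKO and control arrays were compared by a limma fit with group alone in the model (limma 3.58.1, R 4.3.3). P-values are two-sided and were adjusted by the Benjamini-Hochberg method over all 45037 probe sets, with a threshold of 0.05. Errors are SDs over 3 pools or SEs of the fit. Named genes were every member, Myc, Mycn and the 3 genes most correlated with each member that passed. Genes of the wider lists were named if they passed or, where fewer than 2 did, by the smallest p up to 2. Pmaip1, Gata1, Foxo4, Stat5b, Xist, Bax, the second probe sets of listed genes and the marker genes were added once their values were known. The members and lists were chosen with earlier results of these data known. The deviations of same-numbered arrays of the 2 groups had correlations of 0.06, -0.03 and 0.01. Those of the other array pairs ran from -0.06 to 0.06. Replicate 1 of both groups had high Xist signal, so these correlations cannot exclude matched sets. The numbers were not taken as pairs, and a fit with the replicate block is given below. Figures were drawn with matplotlib 3.10.9.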

Additional observations from a re-analysis of the deposited data

How the results depend on the processing

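Alternatives covered the features tested, a filter on dim probe sets, 3 scalings, the variance model, array weights, the threshold and leaving out arrays. The 4 member probe sets that rose kept their sign in every alternative run. Their number was 3 with quantile normalization, where Bcl2l1 1420888_at lost its call (0.99, adjusted p = 0.0557), 1 at a threshold of 0.01 and 2 without both pools with Xist signal, and 1 to 2 with single arrays left out. With 1 probe set for each member, 2 rose; the number was 1 when probe sets of a gene were averaged (Bcl2 at 0.55, adjusted p = 0.0847), 0 at 0.01, 1 without both Xist pools and 0 to 1 with single arrays left out. With the replicate block 3 member probe sets rose, and 1 of the members taken by 1 probe set each, since Bcl2 lost its call (adjusted p = 0.0887); of the wider genes 1 rose with the block. No member probe set passed downwards in any alternative. Of the wider genes, 3 rose; the number was 6 with the mean of probe sets (adding Bcl2l14, Fas, Gata1 and Tnfsf10 and losing Stat3), 1 with quantile normalization, 5 with array weights, 5 at 0.1, 0 at 0.01, 0 without both Xist pools and 0 to 2 with single arrays left out. None of the wider genes passed downwards, except that 1 did with the mean of probe sets (Casp2). Over all probe sets 1622 passed, with 2509 under array weights, 2666 at 0.1, 515 at 0.01, 565 without both Xist pools and 661 to 1472 with single arrays left out. The replicate numbers were not shown to mark pairs, and the block left 1252 calls.

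The sign turned in 24 of 606 alternative values of single probe sets, none of which passed. Each range here is over single arrays left out. Bcl2l2 1430453_a_at ran from -0.061 to 0.20 and was -0.0086 under array weights. Mcl1 1456243_x_at ran from -0.073 to 0.0093 and was 0.020 under cyclic loess. Mcl1 1416880_at ran from -0.26 to 0.0062. Mcl1 1416881_at ran from -0.18 to 0.13 and was 0.0025 under quantile normalization and 0.039 under cyclic loess. Bcl2l11 1435448_at ran from -0.19 to 0.24 and was 0.015 under cyclic loess and 0.12 under array weights. Bcl2l11 1426334_a_at ran from -0.98 to 0.054 and was 0.045 without both Xist pools. Bcl2l11 1435449_at ran from -0.36 to 0.020. Bcl2l11 1456006_at ran from -0.38 to 0.21 and was 0.015 under array weights and 0.22 without both Xist pools. Bad 1416583_at ran from -0.32 to 0.070 and was 0.15 without both Xist pools. The causes were not tested. Bid 1447873_x_at and Bcl2l1 1426050_at were dim, with means of 3.65 and 4.66 over the arrays. Whether differences are compressed at such levels was not tested. Bid 1447873_x_at had the largest difference of the BH3-only probe sets, at -0.84.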

Other observations

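The lists of wider cell death genes were described by the brightest probe set of each gene, and other probe sets of the same genes held further changes. Of 175 probe sets of the 65 genes, 6 rose and 0 fell in the limma fit over all probe sets. In that fit 1.83% of all probe sets rose and 1.78% fell. Tnfsf10, which encodes the death ligand TRAIL, rose by its second probe set 1420412_at, which read 7.32, 7.18 and 7.12 in dKO and 6.13, 6.10 and 6.09 in control (1.10 ± 0.16; adjusted p = 0.00887). Its brightest probe set differed by 0.62 and did not pass (adjusted p = 0.291). Bcl2l14, a distant BCL2 relative, rose by 1429347_at, with 5.80, 5.81 and 6.20 in dKO and 4.43, 4.66 and 4.93 in control (1.26 ± 0.20; adjusted p = 0.0142). Both probe sets of Fasl rose, the dimmer by 2.50 ± 0.47 (adjusted p = 0.0261), and in both dKO 3 was the lowest dKO pool. These probe sets were named after their values were seen.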
